A study of Mus musculus with 35 samples.

Results

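The class III receptor tyrosine kinases, FLT3, KIT, the CSF1 receptor and the 2 PDGF receptors, were followed at the RNA level in mouse bone marrow cells that carried the leukaemia fusion NUP98-HOXA9 or mutants of it. The 5 genes, Flt3, Kit, Csf1r, Pdgfra and Pdgfrb, were chosen by family membership, and they are 5 of the 49671 genes counted. All 5 passed the filter on low counts, which left 17166 genes for testing.

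The 35 libraries came from lineage-negative haematopoietic stem and progenitor cells of male and female C57Bl/6 mice, in 7 groups of 5. Empty cells carried a lentiviral vector with the marker mCherry and chloramphenicol acetyltransferase, and were sorted on mCherry alone. The other groups were sorted on mCherry and mEGFP, because each fusion was tagged with mEGFP. G-NHX9 is the full-length fusion, in which the phenylalanine-glycine (FG) repeats of NUP98 are joined to the homeodomain of HOXA9. G-NHX9-8FA has 8 phenylalanines changed to alanine, and G-NHX9-21FGAA has 21 FG pairs changed to a pair of alanines. G-NHX9-midi keeps a shortened stretch of the FG repeats and lacks the GLEBS motif, G-NHX9-midi-21FGAA adds the 21 FG changes to that short form, and G-NHX9-DDNA has homeodomain residues changed so that it binds DNA less well. The labels give donor ages of 8 weeks for all but 3 libraries, namely Empty 4 (9 weeks), Empty 5 (10 weeks) and G-NHX9 1 (11 weeks). These 3 ages run on by 1 week in the order of the labels, so they may be an entry error, and a result for libraries labelled 8 weeks rests on the labels as given. All groups, Empty included, were grown first with stem cell factor, FLT3 ligand and interleukins and then for 1 week in methylcellulose with myeloid and erythroid growth factors plus 10 ng/ml GM-CSF, so the ligands of FLT3 and KIT were supplied to every culture at the start. Each library is a mixed culture that was transduced and sorted, not a single cell type.

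Receptors of this class have a row of immunoglobulin-like domains outside the cell and a kinase domain that is split by an insert. Ligand binding joins a pair of receptors, which then phosphorylate each other and recruit adaptors of the RAS, PI3K and STAT pathways. FLT3 marks multipotent and lymphoid-primed progenitors and dendritic cell precursors, KIT marks stem cells, early progenitors, erythroid progenitors and mast cells, and the CSF1 receptor marks monocytes and macrophages. The PDGF receptors are best known from fibroblasts, pericytes and smooth muscle.

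Total counts per library ran from 31559914 to 75810659, which puts a level of 3 counts at or below 0.0951 CPM in each library. CPM are counts scaled to a fixed library total after TMM normalization, so that libraries can be compared. The endogenous Hoxa9 row, which may also hold reads of the fusion, averaged 0.975 ± 0.221 CPM in Empty (SD, n = 5) and 96.6 ± 14.4 CPM in G-NHX9. It averaged 33.8 CPM in G-NHX9-8FA, 34.6 CPM in G-NHX9-midi and 18.9 CPM in G-NHX9-DDNA, but 3.28 CPM in G-NHX9-21FGAA and 1.12 CPM in G-NHX9-midi-21FGAA. On average over the groups, though not in each, libraries numbered 4 and 5 had more Kit and Pdgfrb than those numbered 1 to 3. This is described further below, and the labels do not say what a number stands for.

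The promoters of Flt3, Kit and Pdgfra are shown because, with G-NHX9, Flt3 rose while Kit and Pdgfra, on the same chromosome, fell. The sequences are the bases before the start in RefSeq (build GRCm38.p6), read 5′ to 3′ on the strand of the gene, with none from within the gene as GENCODE M21 has it. Capitals mark the HOX core TTTAT (or ATAAA on the other strand) and the ETS-type motif GAGGAA (or TTCCTC), both searched on both strands. Flt3 is shown over chr5:147400490-147400739 (minus strand), Kit over chr5:75574737-75574915 and Pdgfra over chr5:75152001-75152250 (both plus strand).
Flt3: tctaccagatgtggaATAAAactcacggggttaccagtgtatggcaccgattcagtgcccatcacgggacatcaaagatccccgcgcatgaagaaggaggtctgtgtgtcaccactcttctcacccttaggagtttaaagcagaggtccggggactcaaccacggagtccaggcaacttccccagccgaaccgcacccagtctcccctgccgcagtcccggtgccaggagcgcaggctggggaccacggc
Kit: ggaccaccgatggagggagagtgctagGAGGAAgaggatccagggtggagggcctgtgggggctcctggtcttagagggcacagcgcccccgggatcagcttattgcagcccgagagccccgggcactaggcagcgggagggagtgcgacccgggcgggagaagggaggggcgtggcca
Pdgfra: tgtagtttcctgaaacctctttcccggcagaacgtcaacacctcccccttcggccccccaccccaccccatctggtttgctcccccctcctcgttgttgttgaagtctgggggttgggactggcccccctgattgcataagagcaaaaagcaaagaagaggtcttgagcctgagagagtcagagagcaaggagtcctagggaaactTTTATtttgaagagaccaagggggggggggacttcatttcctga

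The search covered the 250 bases before each RefSeq start. For Kit 179 of these are shown, and the rest lie within the gene as GENCODE M21 has it. The HOX core occurred 1 time before Flt3 and 1 time before Pdgfra, and 0 times before Kit. It is a common word, held by 37.3% of 32851 promoter windows of the same length. The composite of PBX and HOX sites, TGATTTAT, which holds the core within it, was in none of the 3 windows and in 0.837% of all windows, and the GATA core GATAA (or TTATC) was in none of the 3 and in 22.6% of all. GAGGAA occurred 1 time, before Kit, against 23.3% of all windows. These matches are letters in a short window, and binding was not measured.

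The 5 receptors differed widely in level. Per kilobase of exon, Csf1r was the most abundant in every group. It made up between 63.8% ± 3.44 (SD, n = 5; G-NHX9-21FGAA) and 85.2% ± 3.08 (G-NHX9) of the summed CPM per kilobase of the 5 genes. Kit supplied most of the rest, from 9.2% ± 2.51 in G-NHX9 to 34.6% ± 2.85 in G-NHX9-21FGAA. Flt3 was a trace of the family in Empty, at 0.0546% ± 0.0327, and reached 2.79% ± 0.596 in G-NHX9. The summed level itself ranged from 42.7 ± 6.49 CPM per kilobase in G-NHX9-midi to 71 ± 18.4 in G-NHX9-midi-21FGAA. The balance of Kit to Csf1r differed between groups. The median ratio of Kit to Csf1r, per kilobase, was 0.0907 in G-NHX9, 0.211 in Empty and 0.557 in G-NHX9-21FGAA. The 5 G-NHX9-21FGAA libraries spanned 0.476 to 0.661, all above the Empty range of 0.134 to 0.226.

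**Figure D1:**
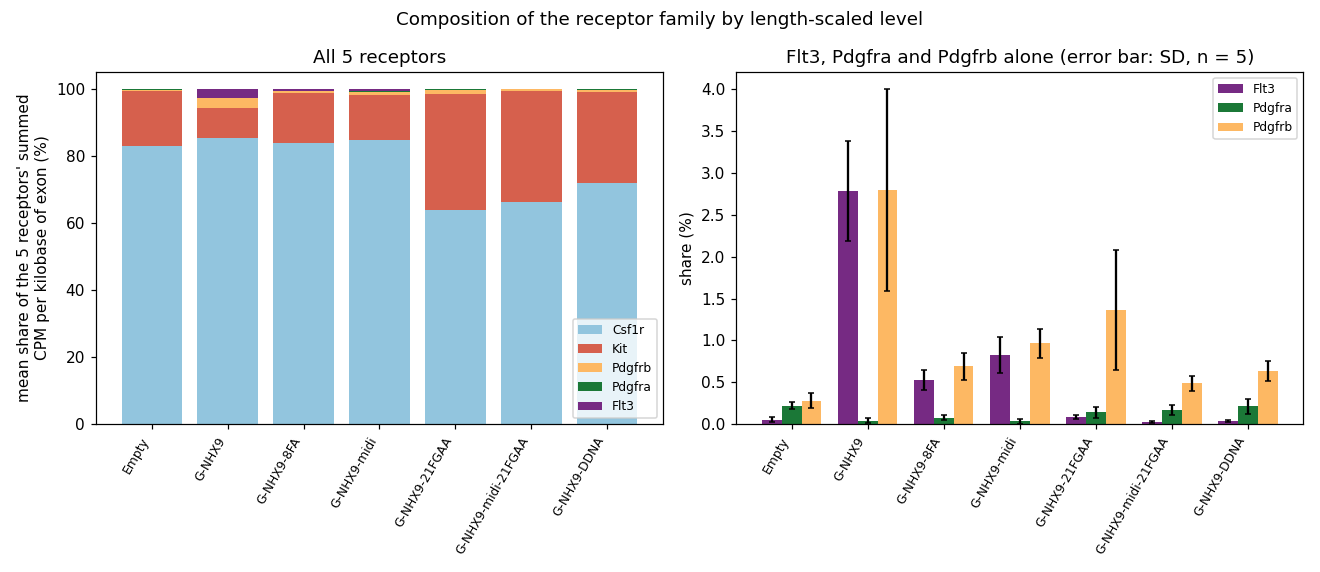
Mean share of each receptor in the summed CPM per kilobase of exon of the 5 genes (y axis, %) in the 7 groups of 5 libraries (x axis), for all 5 genes as stacked bars and for Flt3, Pdgfra and Pdgfrb alone with SD bars. Csf1r and Kit fill nearly the whole bar in each group, Kit takes 34.6% in G-NHX9-21FGAA against 9.2% in G-NHX9, and Flt3 and Pdgfrb reach 2.79% and 2.8% in G-NHX9.

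The constructs were compared with Empty, the mutants with G-NHX9 and G-NHX9-midi-21FGAA with G-NHX9-midi, to ask which parts of the fusion go with a change of receptor RNA. A gene is said to have changed where the adjusted p of edgeR's quasi-likelihood test (Benjamini-Hochberg over all 17166 genes) was under 0.05. Against Empty, 4 of the 5 receptors changed with G-NHX9, where 32.1% of all genes tested did. With G-NHX9-8FA 3 of 5 changed (26.6% of all genes), with G-NHX9-midi 5 of 5 (40.5%) and with G-NHX9-21FGAA 3 of 5 (27.1%). With G-NHX9-midi-21FGAA 2 of 5 changed (16.9% of all genes), as did 2 of 5 with G-NHX9-DDNA (17.2%). Against G-NHX9, 2 of 5 differed in G-NHX9-8FA (14.5% of all genes), 2 in G-NHX9-midi (19.7%), 4 in G-NHX9-21FGAA (17.2%) and 4 in G-NHX9-DDNA (22.1%). Between G-NHX9-midi-21FGAA and G-NHX9-midi 3 of 5 differed (43.2% of all genes). Comparisons with the same reference group share its 5 libraries, so their values are given side by side and are not independent of each other. In the 10 other pairs of groups, the share of all genes called was 4.25% for G-NHX9-midi against G-NHX9-8FA, where 0 of 5 receptors were called, and 32.4%, 37.8% and 34.7% for G-NHX9-21FGAA, G-NHX9-midi-21FGAA and G-NHX9-DDNA against G-NHX9-8FA, where 4, 3 and 3 receptors were. It was 28.7% for G-NHX9-midi-21FGAA against G-NHX9 (4 receptors), and 36.1% and 40.7% for G-NHX9-21FGAA and G-NHX9-DDNA against G-NHX9-midi (4 and 3 receptors). Among the 3 groups with the 21 FG or homeodomain changes it was 3.01% between G-NHX9-midi-21FGAA and G-NHX9-21FGAA, where 1 receptor, Flt3, was called. It was 1.04% between G-NHX9-DDNA and G-NHX9-21FGAA and 0.915% between G-NHX9-DDNA and G-NHX9-midi-21FGAA, with 0 receptors called in either. With 5 genes, these counts describe the family and are no test of it.

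**Figure D2:**
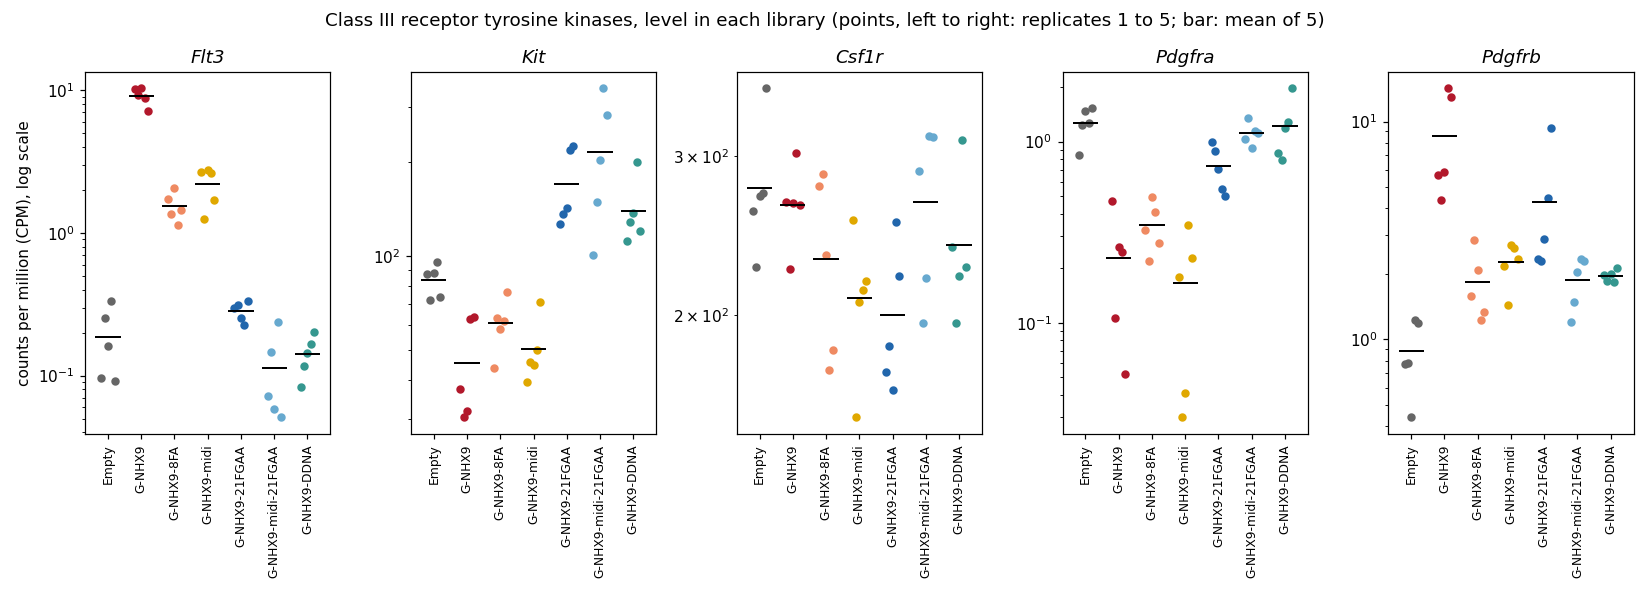
Level of each receptor in CPM (y axis, log scale, 1 panel per gene) in each of the 35 libraries (points) of the 7 groups (x axis), with the mean of each group as a bar. All 5 G-NHX9 libraries lie between 7.18 and 10.3 CPM for Flt3, above every other library, and the 3 groups in which Flt3 is raised are those in which Pdgfra is lowest.

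Flt3 rose strongly with G-NHX9, G-NHX9-8FA and G-NHX9-midi, and was not called different from Empty with the other 3 constructs. Flt3 is the receptor of FLT3 ligand and is often mutated in acute myeloid leukaemia. The gene lies on chromosome 5 at 147330741 to 147400489 on the minus strand. The 5 Empty libraries had 0.096, 0.253, 0.162, 0.332 and 0.0918 CPM, which rest on 3 to 11 counts each. The 5 G-NHX9 libraries had 10.2, 9.2, 10.3, 8.75 and 7.18 CPM, on 276 to 435 counts. The groups did not overlap, and the log2 fold change was 5.61 (SE 0.32, adjusted p = 8.9e-15), a 48.9-fold rise.

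G-NHX9-8FA raised Flt3 to 1.72, 1.35, 2.07, 1.13 and 1.44 CPM, 8.28-fold over Empty (log2 3.05, SE 0.32, adjusted p = 8.2e-09). G-NHX9-midi raised it to 2.65, 1.26, 2.78, 2.62 and 1.69 CPM, 11.8-fold over Empty (log2 3.56, SE 0.31, adjusted p = 9.7e-11). Both groups lay wholly above Empty and wholly below G-NHX9. Against G-NHX9, Flt3 was 5.9-fold lower in G-NHX9-8FA (log2 -2.56, SE 0.26, adjusted p = 1.7e-08) and 4.14-fold lower in G-NHX9-midi (log2 -2.05, SE 0.25, adjusted p = 2.9e-07). G-NHX9-midi and G-NHX9-8FA overlapped, and their difference of 0.51 on the log2 scale had a 95% interval of 0 to 1.03 (adjusted p = 0.3).

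The remaining constructs overlapped Empty in Flt3. G-NHX9-21FGAA libraries had 0.298, 0.311, 0.254, 0.225 and 0.334 CPM, on 13 to 16 counts, and their log2 difference from Empty was 0.61 (95% interval -0.1 to 1.31, adjusted p = 0.21). G-NHX9-midi-21FGAA libraries had 0.0722, 0.146, 0.0587, 0.237 and 0.051 CPM (log2 -0.72 against Empty, adjusted p = 0.21), a difference that passed at -1.16 without G-NHX9-midi-21FGAA 4. G-NHX9-DDNA libraries had 0.0827, 0.117, 0.143, 0.166 and 0.202 CPM (log2 -0.37, 95% interval -1.16 to 0.41, adjusted p = 0.56). Within these low groups, which rest on 3 to 16 counts per library, Flt3 was lower in G-NHX9-midi-21FGAA than in G-NHX9-21FGAA (log2 -1.33, SE 0.35, 95% interval -2.05 to -0.61, adjusted p = 0.032), although the groups overlapped. G-NHX9-DDNA lay wholly below G-NHX9-21FGAA but was not called (log2 -0.98, adjusted p = 0.28). Against G-NHX9, Flt3 was 32.1-fold lower in G-NHX9-21FGAA (log2 -5.01, SE 0.3, adjusted p = 4.3e-14) and 63.3-fold lower in G-NHX9-DDNA (log2 -5.98, SE 0.33, adjusted p = 3.1e-15). G-NHX9-midi-21FGAA was 19.5-fold below G-NHX9-midi (log2 -4.29, SE 0.32, adjusted p = 1.9e-12).

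G-NHX9 had the highest Flt3, with G-NHX9-midi and G-NHX9-8FA next and the other 4 groups below them. In the order of means, the neighbours that differed were G-NHX9 and G-NHX9-midi, and G-NHX9-8FA and G-NHX9-21FGAA (adjusted p = 5.9e-08). The 35 libraries spanned a 203-fold range, the widest of the 5 receptors. The progenitor markers moved with Flt3 in part. All 14 were measured, and none of the 5 receptors is among them. With G-NHX9, where 32.1% of all genes were called, 8 rose and 0 fell. Their summed level was 617 to 710 CPM in G-NHX9 and 230 to 301 CPM in Empty, but it was also 431 to 526 CPM in G-NHX9-21FGAA, where Flt3 did not pass. Markers of dendritic and lymphoid cells, 14 genes of which 7 were tested, went the other way in sum. Their summed level was 698 to 868 CPM in Empty and 313 to 537 CPM in G-NHX9. It was 318 to 580 CPM in G-NHX9-8FA and 167 to 379 CPM in G-NHX9-midi. It was also below Empty in groups where Flt3 did not pass, at 304 to 578 CPM in G-NHX9-21FGAA and 543 to 646 CPM in G-NHX9-midi-21FGAA. G-NHX9-DDNA overlapped Empty, at 464 to 710 CPM, with a median of 550 against 776 CPM. The part of either list in the Flt3 result was not tested. In bulk cultures such as these, fewer cells of a type and less RNA per cell cannot be told apart, for this and the other receptors. An antisense gene, Gm26597, overlaps Flt3 on the opposite strand and had 0 to 4 counts per library.

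Kit moved in the opposite way. It was lower than in Empty with G-NHX9 and G-NHX9-midi, and higher with G-NHX9-21FGAA, G-NHX9-midi-21FGAA and G-NHX9-DDNA. Kit, the receptor of stem cell factor, lies on chromosome 5 at 75574916 to 75656722 on the plus strand and overlaps no other annotated gene. The 5 Empty libraries had 87.3, 72.3, 88.2, 95.5 and 73.6 CPM. The 5 G-NHX9 libraries had 37.4, 30.3, 31.8, 62.5 and 63.8 CPM, all below Empty (log2 -0.88, SE 0.26, adjusted p = 0.0076). G-NHX9-midi libraries had 39.3, 45.7, 44.5, 49.9 and 71.2 CPM, again all below Empty (log2 -0.73, SE 0.25, adjusted p = 0.02). That second call was lost without G-NHX9-midi 1, at -0.66 on the log2 scale, or with library sizes in place of TMM (-0.62, adjusted p = 0.062). Among libraries labelled 8 weeks, neither call passed (-0.82 and -0.73, adjusted p = 0.055 and 0.064). G-NHX9-8FA libraries, at 43.7 to 76.3 CPM with a median of 61.7, overlapped Empty (log2 -0.46, 95% interval -0.98 to 0.06, adjusted p = 0.19). Kit was called lower there in a fit to the compared groups alone (-0.47, adjusted p = 0.031) and in replicates numbered 1 to 3 (-0.59, adjusted p = 0.032).

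G-NHX9-21FGAA libraries had 127, 136, 142, 219 and 226 CPM of Kit, 2.04-fold above Empty (log2 1.03, SE 0.25, adjusted p = 0.003). G-NHX9-midi-21FGAA libraries had 101, 149, 203, 345 and 284 CPM, 2.6-fold above Empty (log2 1.38, SE 0.26, adjusted p = 7.8e-04). G-NHX9-DDNA libraries had 112, 128, 137, 200 and 120 CPM, 1.67-fold above Empty (log2 0.74, SE 0.25, adjusted p = 0.04). None of the 3 groups overlapped Empty. The G-NHX9-DDNA call was close to the threshold and was lost on leaving out any 1 of Empty 2, 3, 4 or 5 or G-NHX9-DDNA 2, 3 or 4, with log2 fold changes from 0.58 to 0.81.

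Against G-NHX9 the contrast was sharper. Kit was 3.76-fold higher in G-NHX9-21FGAA (log2 1.91, SE 0.26, adjusted p = 1.5e-06) and 3.09-fold higher in G-NHX9-DDNA (log2 1.63, SE 0.26, adjusted p = 1.5e-05). It was 4.32-fold higher in G-NHX9-midi-21FGAA than in G-NHX9-midi (log2 2.11, SE 0.26, adjusted p = 6.6e-08). G-NHX9-8FA and G-NHX9-midi were not called different from G-NHX9, with 95% intervals of the log2 difference of -0.09 to 0.94 and -0.37 to 0.67. In the order of means, only G-NHX9-DDNA and Empty differed among neighbours.

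Markers of mast cells and basophils moved in the direction of Kit in 4 of the 5 comparisons with Empty in which Kit was called, though they also fell with G-NHX9-8FA, where Kit was not called. Of the 12 genes listed, 11 were tested and Kit is not among them. With G-NHX9 8 fell and 0 rose (32.1% of all genes called), and with G-NHX9-8FA 9 fell and 0 rose (26.6%). With G-NHX9-midi 9 fell and 0 rose (40.5% of all genes). With G-NHX9-21FGAA 4 rose and 0 fell (27.1%), and with G-NHX9-midi-21FGAA 5 rose and 0 fell (16.9%). With G-NHX9-DDNA, where Kit was called higher, 0 of 11 passed (17.2% of all genes). Their summed level ran from 1450 to 3950 CPM in Empty, 769 to 1110 CPM in G-NHX9 and 3750 to 5350 CPM in G-NHX9-21FGAA. Among those that fell, the protease genes Tpsab1, Mcpt4 and Cma1 had log2 fold changes of -4.42, -3.84 and -3.56 with G-NHX9 against Empty. With G-NHX9-8FA these were -5.4, -3.31 and -3.19, and with G-NHX9-midi -5.5, -4.88 and -4.1. Cpa3, a mast cell carboxypeptidase, averaged 1040 CPM in Empty, 301 CPM in G-NHX9 and 2450 CPM in G-NHX9-midi-21FGAA, and Fcer1a, a chain of the IgE receptor, averaged 133, 21 and 314 CPM in the same groups. Of the 15 erythroid markers, set beside the same shares of all genes, 9 rose with G-NHX9-21FGAA and 11 with G-NHX9-midi-21FGAA. With G-NHX9-DDNA 5 rose, with G-NHX9-8FA 13 fell, and with G-NHX9-midi 12 fell and 1 rose. With G-NHX9 2 rose and 0 fell. Their summed level ran from 352 to 960 CPM in Empty, 367 to 923 CPM in G-NHX9 and 806 to 2130 CPM in G-NHX9-midi-21FGAA. The part of either cell type in the Kit result was not tested.

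**Figure D3:**
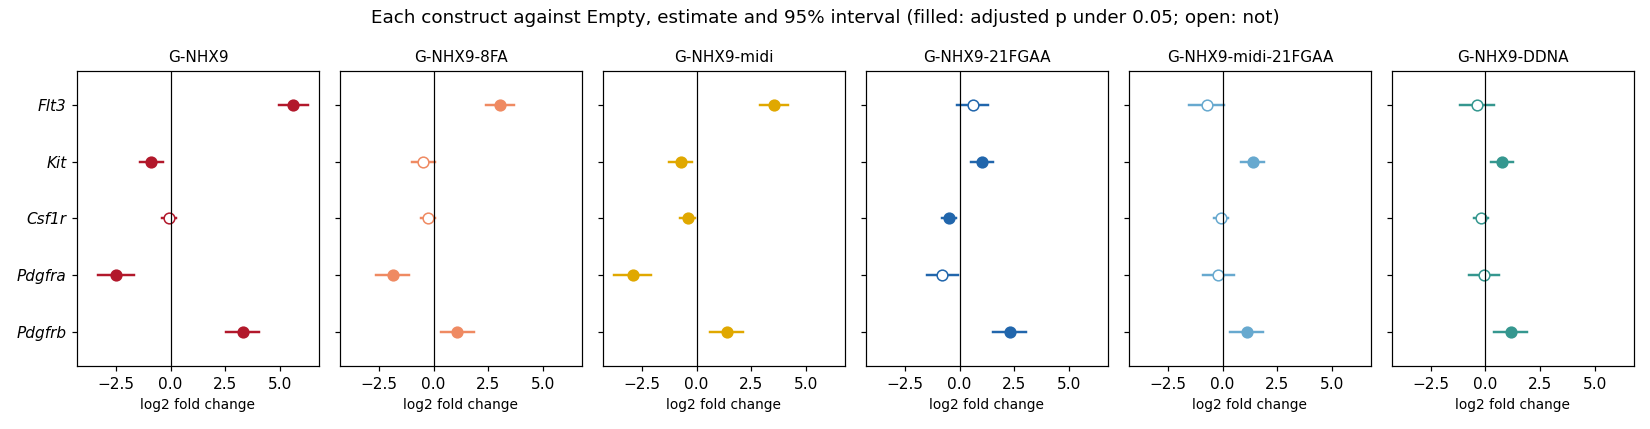
Log2 fold change against Empty (x axis) of the 5 receptors (y axis) with each construct (panels), with 95% intervals. Filled points passed the test. Flt3 and Pdgfra lie on opposite sides of 0 with G-NHX9, G-NHX9-8FA and G-NHX9-midi, Kit lies to the right of 0 with G-NHX9-21FGAA, G-NHX9-midi-21FGAA and G-NHX9-DDNA, and Pdgfrb lies to the right with all 6 constructs.

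Csf1r, the macrophage receptor for CSF1 and IL-34, was the steadiest of the 5. It lies on chromosome 18 at 61100598 to 61132149 on the plus strand. Over the 35 libraries it spanned 154 to 357 CPM, a 2.31-fold range. The 5 Empty libraries had 261, 226, 271, 273 and 357 CPM, and the 5 G-NHX9 libraries had 267, 225, 266, 303 and 265 CPM. The groups overlapped, and the 95% interval of the log2 difference was -0.39 to 0.26 (adjusted p = 0.8). Csf1r passed with G-NHX9-midi (log2 -0.41, SE 0.16, adjusted p = 0.043) and G-NHX9-21FGAA (log2 -0.47, SE 0.16, adjusted p = 0.027), although both groups overlapped Empty. The G-NHX9-midi libraries had 255, 154, 207, 213 and 218 CPM, and this call held only without Empty 2 or G-NHX9-midi 1. It was lost without each of Empty 1, 3, 4 and 5 and G-NHX9-midi 2, 3, 4 and 5, at log2 -0.49 to -0.31 over all 10 fits. The G-NHX9-21FGAA libraries had 173, 185, 165, 254 and 221 CPM, and the call was lost without Empty 5 or G-NHX9-21FGAA 1, 2 or 3, at log2 -0.58 to -0.35 over the 10 fits. Neither call passed with library sizes in place of TMM, where both log2 fold changes were -0.29. That scaling moved the median of all genes with G-NHX9 against Empty from 0.01 to 0.19, and the share of higher genes among those called from 52.5% to 75.4%. Of the 21 pairs of groups, 2 were called for Csf1r, against 15 for Flt3, 14 for Kit, 13 for Pdgfrb and 12 for Pdgfra.

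The 21 FG changes had Csf1r differences of opposite sign in the full-length and the short fusion, neither of which passed against the construct without them. The log2 difference was -0.41 from G-NHX9 to G-NHX9-21FGAA (adjusted p = 0.081) and 0.35 from G-NHX9-midi to G-NHX9-midi-21FGAA (adjusted p = 0.078). With a block for the number of the replicate, the first was -0.41 with an adjusted p of 0.041, and it also passed without G-NHX9-21FGAA 4. The second passed without G-NHX9-midi 1, G-NHX9-midi-21FGAA 2 or G-NHX9-midi-21FGAA 3. The difference between these effects was called, at 0.76 (SE 0.23, adjusted p = 0.023), where 12.6% of all genes were. It was lost without G-NHX9-midi 2, G-NHX9-21FGAA 3 or G-NHX9-midi-21FGAA 4, at 0.67 to 0.87 over 20 fits. For the other receptors this difference was not called, at 0.72 for Flt3, 0.2 for Kit, 1.04 for Pdgfra and 0.74 for Pdgfrb on the log2 scale, with adjusted p-values of 0.27 or more.

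Other macrophage and monocyte genes split. Of 17 listed, 15 were tested, and with G-NHX9 6 rose and 5 fell (32.1% of all genes called). With G-NHX9-midi 3 rose and 7 fell (40.5% of all genes), and with G-NHX9-21FGAA 1 rose and 4 fell (27.1%). Their summed level was 3360 to 4480 CPM in Empty, 2690 to 4230 CPM in G-NHX9-midi and 1850 to 3500 CPM in G-NHX9-21FGAA. Their part in the Csf1r values was not tested. Adgre1, which encodes the macrophage antigen F4/80, averaged 440 to 666 CPM over the groups, while the complement genes of tissue macrophages were low. C1qa, C1qb and C1qc rose with G-NHX9 by 3.6, 3.09 and 2.92 on the log2 scale (adjusted p = 3.0e-04, 2.0e-07 and 1.2e-06), to means of 0.467, 5.33 and 4.86 CPM. Hmgxb3, which overlaps the end of Csf1r on the opposite strand, had 1218 to 3776 counts per library. Whether reads were assigned by strand is not given in the sources used here, so some reads of the overlap could belong to either gene.

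Pdgfra, the receptor of PDGF-A, PDGF-B and PDGF-C dimers, was scarce, and it fell where Flt3 rose. It lies on chromosome 5 at 75152292 to 75198215 on the plus strand, 377 kb from Kit. The 5 Empty libraries had 0.84, 1.24, 1.48, 1.26 and 1.53 CPM, on 35 to 64 counts. The 5 G-NHX9 libraries had 0.473, 0.106, 0.261, 0.247 and 0.052 CPM, on 2 to 17 counts. G-NHX9 lay wholly below Empty, 5.63-fold lower (log2 -2.49, SE 0.4, adjusted p = 1.1e-05). G-NHX9-8FA libraries had 0.326, 0.22, 0.496, 0.411 and 0.275 CPM, 3.65-fold below Empty (log2 -1.87, SE 0.38, adjusted p = 3.1e-04). G-NHX9-midi libraries had 0.179, 0.03, 0.0409, 0.348 and 0.227 CPM, 7.57-fold below Empty (log2 -2.92, SE 0.41, adjusted p = 7.2e-07). With 1 to 13 counts in G-NHX9-midi, the size of that last fold is coarse.

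The other 3 constructs kept Pdgfra within reach of Empty. G-NHX9-21FGAA libraries had 0.999, 0.89, 0.705, 0.549 and 0.501 CPM (log2 -0.8 against Empty, 95% interval -1.51 to -0.09, adjusted p = 0.09). DESeq2 and a fit to the compared groups alone did call that difference, at adjusted p = 0.042 and 0.04. G-NHX9-midi-21FGAA libraries had 1.03, 1.35, 0.92, 1.14 and 1.11 CPM, and G-NHX9-DDNA libraries had 0.868, 0.796, 1.19, 1.28 and 1.97 CPM. Their log2 differences from Empty had 95% intervals of -0.89 to 0.51 and -0.75 to 0.64. Against G-NHX9, Pdgfra was 3.23-fold higher in G-NHX9-21FGAA (log2 1.69, SE 0.4, adjusted p = 0.0025) and 5.42-fold higher in G-NHX9-DDNA (log2 2.44, SE 0.4, adjusted p = 2.2e-05). It was 6.64-fold higher in G-NHX9-midi-21FGAA than in G-NHX9-midi (log2 2.73, SE 0.41, adjusted p = 1.6e-06). G-NHX9-8FA and G-NHX9-midi overlapped G-NHX9 and were not called different from it, at log2 0.62 and -0.43. In the order of means, the one step between neighbours that passed was from G-NHX9-21FGAA to G-NHX9-8FA (adjusted p = 0.029).

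Pdgfrb, the receptor of PDGF-B and PDGF-D dimers, rose with all 6 constructs, G-NHX9-DDNA included. All 6 were tagged with mEGFP and sorted on it, while Empty was sorted on mCherry alone. For any gene raised by all 6, fusion, tag and sort cannot be told apart by this comparison, and their parts were not tested. Pdgfrb lies on chromosome 18 at 61045150 to 61085061 on the plus strand, 15.5 kb before Csf1r. The 5 Empty libraries had 0.768, 0.781, 0.439, 1.23 and 1.19 CPM, on 19 to 39 counts. The 5 G-NHX9 libraries had 5.67, 4.36, 5.86, 14.2 and 13 CPM, 9.87-fold higher (log2 3.3, SE 0.38, adjusted p = 3.6e-08). G-NHX9-21FGAA came next with 2.34, 2.28, 2.9, 4.48 and 9.38 CPM (log2 2.29, SE 0.37, adjusted p = 4.1e-05), all above Empty.

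The smaller rises of Pdgfrb were alike in size. G-NHX9-midi libraries had 2.17, 1.44, 2.7, 2.62 and 2.35 CPM (log2 1.38, SE 0.37, adjusted p = 0.0032). G-NHX9-8FA libraries had 1.58, 2.87, 2.09, 1.23 and 1.34 CPM (log2 1.08, SE 0.37, adjusted p = 0.029), and the lowest of them stood level with the highest Empty library. G-NHX9-midi-21FGAA libraries had 1.2, 1.49, 2.04, 2.35 and 2.28 CPM (log2 1.11, SE 0.37, adjusted p = 0.035) and overlapped Empty. G-NHX9-DDNA libraries had 1.98, 1.85, 1.99, 1.83 and 2.13 CPM (log2 1.17, SE 0.37, adjusted p = 0.028), all above Empty. The last 3 calls were near the threshold. The G-NHX9-8FA call was lost without Empty 1, 2 or 3 or G-NHX9-8FA 2 or 3, at log2 0.84 to 1.2 over 10 fits. The G-NHX9-midi-21FGAA call was lost without Empty 1, 2 or 3 or G-NHX9-midi-21FGAA 3, 4 or 5, at 0.95 to 1.26. The G-NHX9-DDNA call was lost without Empty 2 or 3, at 1 to 1.32.

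Against G-NHX9, Pdgfrb was 4.67-fold lower in G-NHX9-8FA (log2 -2.22, SE 0.35, adjusted p = 3.7e-05), 3.8-fold lower in G-NHX9-midi (log2 -1.93, SE 0.35, adjusted p = 1.2e-04) and 4.39-fold lower in G-NHX9-DDNA (log2 -2.13, SE 0.35, adjusted p = 2.4e-05). None of these groups overlapped G-NHX9. G-NHX9-21FGAA overlapped it, and the 2.02-fold difference (log2 -1.01, SE 0.34, adjusted p = 0.033) was lost without G-NHX9 4 or 5 or G-NHX9-21FGAA 1, 2, 3 or 4, at -1.49 to -0.74, and in a fit to the compared groups alone (adjusted p = 0.18). G-NHX9-midi-21FGAA and G-NHX9-midi were not called different (log2 -0.27, 95% interval -0.97 to 0.44, adjusted p = 0.57), unlike for Flt3, Kit and Pdgfra, where this pair differed. In the order of means, G-NHX9 differed from G-NHX9-21FGAA, G-NHX9-21FGAA from G-NHX9-midi (adjusted p = 0.036) and G-NHX9-8FA from Empty, while the 4 groups from G-NHX9-midi to G-NHX9-8FA did not differ between neighbours.

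Markers of the cells that PDGF receptors are known for were uneven. Of 15 stromal and mesenchymal genes, 7 were tested. The collagen Col1a1 averaged 0.158 to 0.32 CPM over the groups, and Dcn, Lum and Cxcl12 were at or near 0, with 8 counts or fewer in any library. Markers of pericytes and smooth muscle were detected. Acta2, smooth muscle actin, averaged 3.42 CPM in G-NHX9 to 10.6 CPM in G-NHX9-8FA, with 7.91 CPM in Empty. Cspg4, which encodes NG2, averaged 0.858 CPM in G-NHX9 to 5.63 CPM in G-NHX9-midi-21FGAA, with 2.14 CPM in Empty, and Rgs5 averaged 0.115 to 0.491 CPM over the groups. Most of the list's summed level of 80 to 173 CPM per library was Pdpn, which averaged 71.6 to 116 CPM. With G-NHX9, where 32.1% of all genes were called, 1 listed gene rose and 3 fell, among them Acta2 (log2 -1.21) and Cspg4 (log2 -1.32). The gene that rose was Lepr, the leptin receptor, from 3.68 CPM in Empty to 54.2 CPM in G-NHX9, and it also rose with G-NHX9-8FA (log2 1.93, adjusted p = 9.1e-06) and G-NHX9-midi (log2 1.95, adjusted p = 3.2e-06). Lepr did not pass with G-NHX9-21FGAA, G-NHX9-midi-21FGAA or G-NHX9-DDNA, where Pdgfrb also rose. The part of stromal cells in the Pdgfra and Pdgfrb results was not tested.

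**Figure D4:**
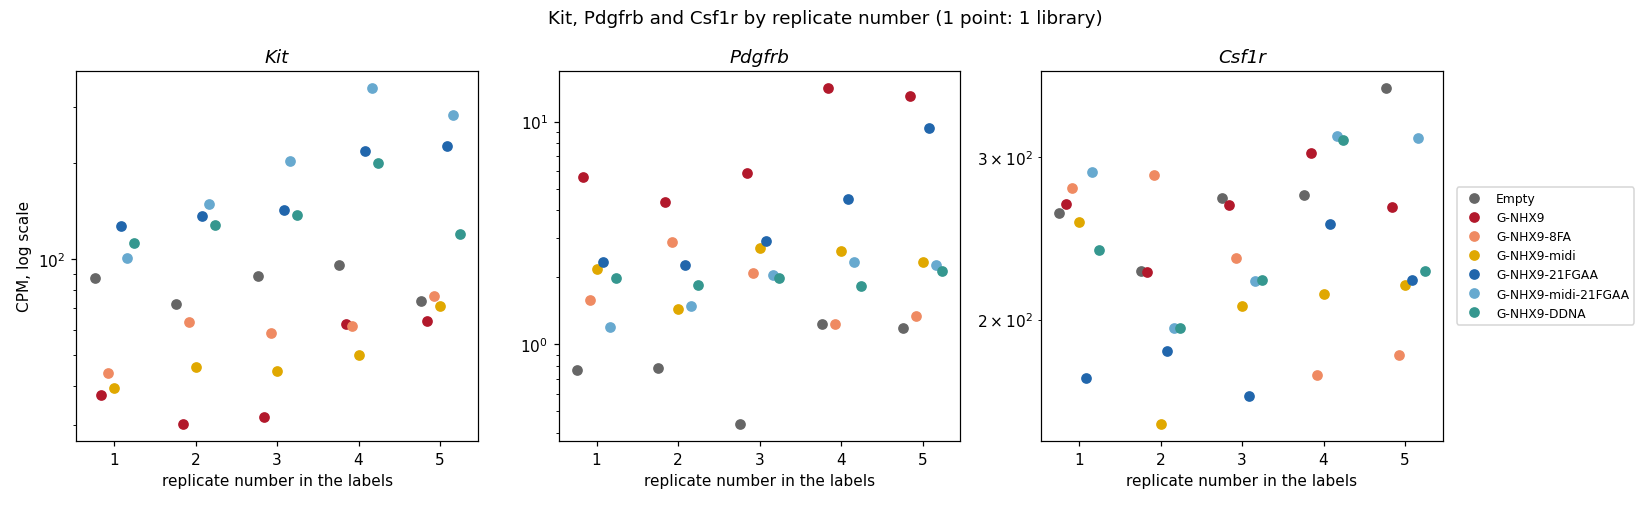
Level in CPM (y axis, log scale) of Kit, Pdgfrb and Csf1r in each library, by the replicate number in its label (x axis) and its group (colour). By the mean of log2 CPM, Kit is above its group mean in all 7 groups in the libraries numbered 4. Pdgfrb in G-NHX9 is 14.2 and 13 CPM in numbers 4 and 5 against 4.36 to 5.86 in numbers 1 to 3.

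Kit and Pdgfrb also differed by replicate number. Taken as log2 deviation from its group mean, Kit averaged -0.36 in the libraries numbered 1 and 0.37 in those numbered 4, and 7 of 7 groups had library 4 above the mean. Pdgfrb averaged -0.27 in the libraries numbered 1 and 0.4 in those numbered 5, and 6 of 7 groups had library 5 above the mean. The number splits G-NHX9 most visibly, at 4.36 to 5.86 CPM of Pdgfrb in libraries 1 to 3 and 13 to 14.2 CPM in libraries 4 and 5. The comparisons were therefore repeated within each set of numbers. With G-NHX9 against Empty, Pdgfrb rose by 2.99 in numbers 1 to 3 (adjusted p = 5.3e-07) and 3.49 in numbers 4 and 5 (adjusted p = 3.1e-05), both as log2 fold changes, and Flt3 rose by 5.84 and 5.25. Kit rose with G-NHX9-midi-21FGAA by 0.89 in numbers 1 to 3 (adjusted p = 0.0081) and by 1.92 in numbers 4 and 5 (adjusted p = 0.0016). The fall of Kit with G-NHX9 did not pass in numbers 4 and 5, at -0.41 (adjusted p = 0.24). Likewise the rise of Pdgfrb was not called there with G-NHX9-8FA (0.1, adjusted p = 0.86), G-NHX9-midi-21FGAA (0.95, adjusted p = 0.058) or G-NHX9-DDNA (0.72, adjusted p = 0.31), with only a pair of libraries in each group.

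The ligands were measured alongside their receptors. Of 8 ligand genes 6 were tested, and Il34 and Pdgfd were too low. With G-NHX9, G-NHX9-8FA and G-NHX9-midi 2 rose and 2 fell in each, with G-NHX9-21FGAA 2 rose and 3 fell, and with G-NHX9-midi-21FGAA and G-NHX9-DDNA 0 of 6 passed. The share of all genes called was 32.1%, 26.6%, 40.5%, 27.1%, 16.9% and 17.2%, in the order named. The median log2 fold change with G-NHX9 was -0.1, beside 0.01 over all genes. Pdgfc, whose protein binds the receptor that Pdgfra encodes, followed Pdgfra down. It averaged 6.72 ± 2.6 CPM in Empty (SD, n = 5), 1.71 ± 0.524 in G-NHX9, 1.24 ± 0.248 in G-NHX9-8FA and 0.386 ± 0.0876 in G-NHX9-midi, with log2 fold changes of -1.97, -2.44 and -4.1 (adjusted p = 4.7e-08, 2.1e-09 and 9.9e-14). It was 5.35, 9.23 and 7.69 CPM in G-NHX9-21FGAA, G-NHX9-midi-21FGAA and G-NHX9-DDNA, where it did not pass. Pdgfb fell with the same 3 constructs, by 0.83, 1.94 and 2.89 on the log2 scale, and with G-NHX9-21FGAA by 0.9.

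Kitl, the stem cell factor gene, averaged 1.05 CPM or less in every group but rose with G-NHX9 (log2 1.86, SE 0.44, adjusted p = 0.0015) and G-NHX9-21FGAA (log2 1.52, SE 0.44, adjusted p = 0.01), the groups in which Pdgfrb was highest. Csf1 rose with G-NHX9-8FA (204 to 276 CPM) and G-NHX9-midi (to 319 CPM) and fell with G-NHX9-21FGAA (to 133 CPM), while Csf1r was called lower in G-NHX9-midi and G-NHX9-21FGAA. Flt3l rose by 0.59 on the log2 scale with G-NHX9-midi, from 5.55 to 8.36 CPM, and by 0.31 to 0.43 with G-NHX9, G-NHX9-8FA and G-NHX9-21FGAA. Pdgfa, at 9.14 to 12.6 CPM, passed with G-NHX9-21FGAA alone, at -0.39 (adjusted p = 0.035).

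All 40 genes of the adaptors, effectors and negative regulators of these receptors were tested. With G-NHX9 8 rose and 11 fell, with G-NHX9-8FA 6 and 8, with G-NHX9-midi 8 and 12, with G-NHX9-21FGAA 6 and 7, with G-NHX9-midi-21FGAA 4 and 3, and with G-NHX9-DDNA 4 and 5. The median log2 fold change lay between -0.16 and 0.05, beside medians of -0.02 to 0.03 over all genes. Of all genes, 32.1%, 26.6%, 40.5%, 27.1%, 16.9% and 17.2% were called in these comparisons, in the order named. The counts are no test of the list. Socs2, a feedback inhibitor of cytokine and growth hormone signalling, rose with the 3 constructs that raised Flt3. It averaged 63.6 ± 1.83 CPM in G-NHX9, 44.6 ± 2.67 in G-NHX9-midi, 32.4 ± 5.75 in G-NHX9-8FA and 26.6 ± 2.57 in Empty (log2 1.26, 0.75 and 0.28 against Empty, adjusted p = 8.1e-12, 1.8e-07 and 0.028). Plcg1 and Sla moved in the same directions as Kit. Plcg1, the phospholipase recruited by several of the receptors, had a log2 fold change of -0.66 with G-NHX9 and 0.45 with G-NHX9-21FGAA, and Sla, which encodes the adaptor SLAP, had -0.6 and 0.39. Gab1 fell with G-NHX9, by 1.13 on the log2 scale (adjusted p = 1.6e-05).

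The nearest relatives of the class, the VEGF receptor kinases Flt1, Kdr and Flt4, were all tested. With G-NHX9 0 rose and 2 fell, with G-NHX9-8FA 0 and 3, with G-NHX9-midi 0 and 2, with G-NHX9-21FGAA 0 and 1, with G-NHX9-midi-21FGAA 1 and 1, and with G-NHX9-DDNA 1 and 0. Of all genes, 32.1%, 26.6%, 40.5%, 27.1%, 16.9% and 17.2% were called, in the order named. Kdr, 276 kb from Kit, averaged 52.5 ± 14.9 CPM in Empty, 16.7 ± 5.93 in G-NHX9 and 30.1 ± 9.45 in G-NHX9-21FGAA. It was lower than in Empty with G-NHX9 (log2 -1.65, adjusted p = 5.7e-06) and also with G-NHX9-21FGAA (log2 -0.8, adjusted p = 0.015), where Kit was higher. Flt1, on the same chromosome as Flt3, rose with G-NHX9-midi-21FGAA (log2 1.32, adjusted p = 0.0053) and G-NHX9-DDNA (log2 1.11, adjusted p = 0.016) and fell with G-NHX9-8FA (log2 -1.31, adjusted p = 0.0028).

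The members lie in 3 clusters on 2 chromosomes, Pdgfra with Kit and Kdr, Pdgfrb with Csf1r, and Flt3 with Flt1, so that neighbours could be compared. Adjacent members moved together in some comparisons and not in others. Kit and Pdgfra both fell with G-NHX9 (log2 -0.88 and -2.49) and with G-NHX9-midi (log2 -0.73 and -2.92). With G-NHX9, Pdgfrb rose by 3.3 on the log2 scale while Csf1r, 15.5 kb away, had -0.07. With G-NHX9-21FGAA, Kit rose while Pdgfra had -0.8 and did not pass. Of 20 genes around the 5 receptors 11 were tested. With G-NHX9, where 32.1% of all genes were called, 0 rose and 5 fell, with a median log2 fold change of -0.32 beside 0.01 over all genes. Pan3, next to Flt3, was at 93.6 to 102 CPM in every group and passed in none of the 6 comparisons with Empty. Around Kit and Pdgfra, Clock, Srd5a3, Tmem165 and Chic2 fell with G-NHX9 by 0.4 to 0.73, while Fip1l1 (0.13) did not pass. Chic2 also fell where Kit rose, with G-NHX9-21FGAA (-0.33), G-NHX9-midi-21FGAA (-0.42) and G-NHX9-DDNA (-0.29). Srd5a3 (-0.51) and Tmem165 (-0.24) also fell with G-NHX9-21FGAA, and Clock (-0.28) did not pass there.

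Transcription factors known to act on these receptors were a list of 19, all tested, and 8 rose and 5 fell with G-NHX9. The list includes Hoxa9, whose row may also hold reads of the fusion. With G-NHX9-8FA 7 rose and 3 fell, with G-NHX9-midi 6 and 5, with G-NHX9-21FGAA 9 and 5, with G-NHX9-midi-21FGAA 4 and 3, and with G-NHX9-DDNA 6 and 2. The share of all genes called, from G-NHX9 on in this order, was 32.1%, 26.6%, 40.5%, 27.1%, 16.9% and 17.2%. Meis1 and Pbx3, the cofactors of HOXA9, did not share the order of Flt3 in full. Pbx3 averaged 63.2 ± 7.82 CPM in G-NHX9 and 6.43 to 10.3 CPM in the other groups. Meis1 averaged 36.3 CPM in G-NHX9 and 31.7 CPM in G-NHX9-21FGAA, against 11.3 and 11.8 CPM in G-NHX9-8FA and G-NHX9-midi, where Flt3 was raised. Myb rose in all 6 comparisons with Empty, by 0.64 to 1.97 on the log2 scale. Gata1 and Gata2, which act on Kit in mast and erythroid cells, went the way of Kit in part. Gata1 averaged 19.8 CPM in Empty, 4.16 in G-NHX9-midi and 46.6 in G-NHX9-21FGAA, and Gata2 averaged 95.6, 51.9 and 159 CPM. With G-NHX9, where Kit fell, neither passed. Spi1, which encodes PU.1, a regulator of Csf1r, fell with G-NHX9 by 0.38 (adjusted p = 1.5e-04), where Csf1r was not called.

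The genes whose pattern over the 35 libraries was most like that of each receptor were sought among 10307 or 10308 other genes whose mean was 5 CPM or more, by Pearson correlation of log2 CPM. The libraries share their groups and replicate numbers, so these values are descriptions. For Flt3 they were Nxpe5 (r = 0.94), Kansl1l, Gstt2, H2afy and Scn3a (r = 0.92). For Kit they were Alox5 (r = 0.94), Plcg1, Prkcb, Cobl and Adgrl1 (r = 0.91). For Pdgfra they included Dapk1, Arnt2 and Slco2b1 (r = 0.92 each) and Sbf2 (r = 0.91). For Pdgfrb the closest were Adgra3 (r = 0.88), Myo10, Neurl3, Ppm1e and Ydjc (r = 0.83). For Csf1r the closest were Il2rg (r = 0.88), Clcn7, Ifi207, Parp12 and Tnfaip1, whose r of 0.79 was the lowest given here.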

How the data were processed

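RNA of 35 cultures of transduced mouse haematopoietic progenitors was sequenced as stranded, rRNA-depleted total RNA, and the authors deposited 1 table of raw read counts per gene, with no normalization. The submitters' processing notes name mm10, STAR 2.7.0d, HTSeq 0.11.2 and DESeq2. Whether reads were counted by strand is not given in the sources used here. Gene positions and exon lengths are from GENCODE M21 (GRCm38), in which 49412 of the 49671 gene IDs (99.5%) were found when ID versions were ignored. No row lacks a gene name.

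Groups came from the sample labels. Genes were filtered with filterByExpr, scaled by TMM and tested in edgeR 4.0.16 (R 4.3.3) with the quasi-likelihood test, in 1 model of all 7 groups, with Benjamini-Hochberg adjustment over the 17166 genes of each comparison and a threshold of 0.05. CPM values use TMM-scaled library sizes, and log2 CPM a prior count of 2. The test code was tested on simulated data. Alternatives were no TMM, RLE factors, no filter, a mean of at least 1 CPM, a replicate block, a fit to the compared groups alone, DESeq2 1.42.0, only libraries labelled 8 weeks, and leaving out each library. Fits within replicate numbers 1 to 3 and 4 to 5 were added after seeing the data.

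The 5 receptors, the gene lists and the tests were chosen with earlier results of these data known. The genes named are the receptors, genes of the lists and markers, and the 5 genes most like each receptor, of which 1 is not reported here. The labels do not say whether libraries of a group came from separate mice or cultures, so p-values measure the spread between libraries, which may be technical. The paper describes transduction with each virus in triplicate, while each group here holds 5 libraries. Which libraries share a transduction is not given in the sources used here. The 70 pairs of libraries within a group all differed beyond sampling noise (lowest chi-square per degree of freedom, 22.5). Total counts were 31559914 to 75810659 per library, and values resting on few counts are given with those counts. Reads carry no molecular identifiers.

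Libraries with the same number deviated together on average (mean r = 0.232, against -0.0571 for other numbers). Deviations were taken from each group's own mean, so the second value follows largely from the first and is no independent baseline. All 5 same-numbered pairs had r over 0.1 in 5 of 11 comparisons, those of G-NHX9, G-NHX9-midi-21FGAA and G-NHX9-DDNA with Empty and of G-NHX9-21FGAA and G-NHX9-DDNA with G-NHX9. There the numbers may pair the libraries, which rests on the data alone. The main tests used no pairing in any comparison, and the replicate block was fitted only as an alternative.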

Additional observations from a re-analysis of the deposited data

Results flagged for a closer look

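The Kit level of G-NHX9-DDNA 4, at 200 CPM, stood apart from the other 4 libraries of its group, which had 112 to 137 CPM. It was the 1 of 35 sets of 5 libraries (5 receptors in 7 groups) in which Dixon's test found an extreme value, and chance alone gives about 1 in 20. The Kit call of G-NHX9-DDNA against Empty was lost without this library, as it was without 6 others.

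The effect of the 21 FG changes on Csf1r differed between the short and the full-length fusion by 0.76 on the log2 scale (interaction term, edgeR, adjusted p = 0.023). The 2 effects, 0.35 and -0.41, had opposite signs and neither passed by itself in the main fit. The second passed with the replicate block (adjusted p = 0.041) and in replicates numbered 1 to 3 (-0.51, adjusted p = 0.028). The first passed in replicates numbered 4 and 5 (0.58, adjusted p = 0.023). Each also passed in 1 or more fits that left out a library.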

How the results depend on the processing

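Of the 35 called tests of receptors, 24 kept their direction and call under every alternative in which they could be fitted, among them all 8 called tests of Flt3. Pdgfra could not be tested with the minimum of 1 CPM, and RLE factors changed no call. The replicate block changed 2 calls, Kit with G-NHX9-8FA against Empty (-0.49, adjusted p = 0.031) and Csf1r in G-NHX9-21FGAA against G-NHX9 (-0.41, adjusted p = 0.041), and no other, while it moved the count of all genes called from 2484 to 3952 for G-NHX9-8FA against G-NHX9 and from 2167 to 3425 for the interaction. Where a call changed, the cause was not tested. All values are log2 fold changes unless they are counts.

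Without TMM, calls were lost for Kit with G-NHX9-midi (-0.62) and Csf1r with G-NHX9-midi and G-NHX9-21FGAA (-0.29 each), and differences near 0 changed sign for Csf1r with G-NHX9 (0.11) and G-NHX9-midi-21FGAA (0.08) and Pdgfra with G-NHX9-DDNA (0.08), all against Empty. This scaling raised the share of higher genes among those called from 50.6% to 64.6% with G-NHX9-midi, 54% to 82.1% with G-NHX9-21FGAA, 56.7% to 83.1% with G-NHX9-midi-21FGAA and 57.3% to 82.5% with G-NHX9-DDNA against Empty, and lowered it from 44.4% to 20% with G-NHX9-8FA against G-NHX9. Without the filter, Csf1r was not called with G-NHX9-midi (-0.41) or G-NHX9-21FGAA (-0.44), nor Pdgfrb in G-NHX9-21FGAA against G-NHX9 (-0.98), and ligand calls over the 6 comparisons with Empty went from 17 to 11. A fit to the compared groups alone called Kit with G-NHX9-8FA (-0.47) and Pdgfra with G-NHX9-21FGAA (-0.78) and lost Pdgfrb in G-NHX9-21FGAA against G-NHX9 (-1.01). For G-NHX9-8FA against G-NHX9 it called 1559 genes. DESeq2 called Pdgfra with G-NHX9-21FGAA (-0.79).

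With libraries labelled 8 weeks only, calls against Empty were lost for Kit with G-NHX9 (-0.82), G-NHX9-midi (-0.73) and G-NHX9-DDNA (0.76) and Csf1r with G-NHX9-midi (-0.28) and G-NHX9-21FGAA (-0.32). Signs changed for Csf1r with G-NHX9 (0.06) and G-NHX9-midi-21FGAA (0.09), Pdgfra with G-NHX9-DDNA (0.04) and Pdgfra in G-NHX9-midi against G-NHX9 (0.01). Calls went from 82 to 52 for adaptors and from 11 to 7 for VEGF receptors. Genes called against Empty went from 2903 to 1475 with G-NHX9-midi-21FGAA and from 2952 to 1942 with G-NHX9-DDNA.

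In replicates numbered 1 to 3, Kit passed with G-NHX9-8FA against Empty (-0.59) and against G-NHX9 (0.72), Csf1r passed in G-NHX9-21FGAA against G-NHX9 (-0.51), and Csf1r was lost with G-NHX9-midi (-0.28). Signs changed for Csf1r with G-NHX9 (0.00) and G-NHX9-8FA (0.07) against Empty, Csf1r in G-NHX9-8FA against G-NHX9 (0.07) and the Kit interaction (-0.23). Genes called against Empty went from 4564 to 2971 with G-NHX9-8FA, 4660 to 2602 with G-NHX9-21FGAA and 2903 to 1378 with G-NHX9-midi-21FGAA. In replicates numbered 4 and 5, calls against Empty were lost for Kit with G-NHX9 (-0.41), G-NHX9-midi (-0.49) and G-NHX9-DDNA (0.93), Csf1r with G-NHX9-21FGAA (-0.38) and Pdgfrb with G-NHX9-8FA (0.10), G-NHX9-midi-21FGAA (0.95) and G-NHX9-DDNA (0.72), as well as for Pdgfra in G-NHX9-21FGAA against G-NHX9 (1.79) and the Csf1r interaction (0.83). Calls appeared for Csf1r with G-NHX9-8FA against Empty (-0.81) and G-NHX9 (-0.67), Csf1r in G-NHX9-midi-21FGAA against G-NHX9-midi (0.58) and Pdgfra with G-NHX9-21FGAA (-1.38). Signs changed for Csf1r with G-NHX9-midi-21FGAA (0.02), Pdgfra with G-NHX9-DDNA (0.23) and Kit and Pdgfra in G-NHX9-midi against G-NHX9 (-0.08 and 0.87). Over all genes, G-NHX9-DDNA against Empty then gave 13 calls, against 2952, G-NHX9-21FGAA and G-NHX9-DDNA against G-NHX9 gave 1766 and 1891, against 2960 and 3798, and the interaction gave 865, against 2167.

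Leaving out 1 library at a time changed calls or signs as follows, against Empty: Kit 0.58 to 0.81 (G-NHX9-DDNA) and -0.9 to -0.66 (G-NHX9-midi), Csf1r -0.49 to -0.31 (G-NHX9-midi), -0.58 to -0.35 (G-NHX9-21FGAA), -0.14 to 0.03 (G-NHX9) and -0.11 to 0.06 (G-NHX9-midi-21FGAA), Pdgfrb 0.84 to 1.2 (G-NHX9-8FA), 0.95 to 1.26 (G-NHX9-midi-21FGAA) and 1 to 1.32 (G-NHX9-DDNA), Flt3 -1.16 to -0.46 (G-NHX9-midi-21FGAA) and Pdgfra -0.29 to 0.06 (G-NHX9-DDNA). Against G-NHX9 the ranges were -0.51 to -0.34 for Csf1r and -1.49 to -0.74 for Pdgfrb in G-NHX9-21FGAA, and -0.01 to 0.31 for Kit and -0.82 to 0.03 for Pdgfra in G-NHX9-midi. Csf1r in G-NHX9-midi-21FGAA against G-NHX9-midi ran from 0.26 to 0.45, and the interactions from 0.67 to 0.87 (Csf1r) and -0.05 to 0.36 (Kit). VEGF receptor calls ran from 7, without Empty 3, to 13. Genes called fell to 1556 for G-NHX9-8FA against G-NHX9 without G-NHX9 5, and to 1918 for G-NHX9-DDNA against Empty without G-NHX9-DDNA 3. At 3 to 16 counts a library for Flt3 outside the 3 groups where it rose, and 1 to 23 for Pdgfra inside them, these are the values that depth limits most.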
